A study of Mus musculus with 18 samples.

Results

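Interferon-stimulated genes are the genes that cells switch on when an interferon binds its receptor, and 39 of them were followed across RNA-seq libraries of cultured mouse brown adipocytes. The members were taken by gene symbol from a fixed list, and all 39 symbols were found among the 20295 genes of the deposited count table, so that none was absent. The cells were wild-type BAT-LgT, a single immortal line of brown fat precursors that carries the large T antigen of SV40, and they were differentiated in culture and used on day 7. Vehicle cells received DMSO for 3 h. ISO cells received 100 nM isoproterenol, an agonist of β-adrenergic receptors, for 3 h. SR-3420 cells received SR-3420, a ligand of ABHD5 that starts lipolysis without a receptor agonist, for 3 h, at 10 µM per the labels, while the text of the study gives another dose and the difference was not settled here. For the groups Lipase Inh. + SR-3420, Lipase Inh. + ISO and Lipase Inh. + Vehicle, inhibitors of the lipases ATGL and HSL were added 1 h before the same 3 h stimulations. Each of the 6 groups had 3 libraries, which were separate experiments with the same line according to the methods.

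Type I interferons signal through the receptor chains IFNAR1 and IFNAR2 and the kinases JAK1 and TYK2 to the factor ISGF3, which holds STAT2 and IRF9 and binds interferon-stimulated response elements (ISREs). Interferon-γ acts through JAK1 and JAK2, and many of its targets carry gamma-activated sites (GAS). Many target genes keep a basal level of expression without added interferon, and no interferon was added to these cells.

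The promoters of 6 members are printed because their genes carry the results below: Ifit3, Gbp7 and Irgm2 fell with stimulation, Irf1 fell with ISO, Trim25 rose, and B2m was the most abundant member without a called difference. Sequences are from RefSeq (GRCm38.p6) and were found unchanged in mm9, the build of the count table, whose coordinates are given in brackets. Each run holds the 160 bases that end next to the start of the gene in the deposited table. Capitals mark an ISRE match (GAAANNGAAA or TTTCNNTTTC, which are the same motif on opposite strands) or a GAS match (TTCNNNGAA, which reads the same on both strands), and none of the marked matches overlap.
Ifit3 (chr19:34657859-34658018, + strand): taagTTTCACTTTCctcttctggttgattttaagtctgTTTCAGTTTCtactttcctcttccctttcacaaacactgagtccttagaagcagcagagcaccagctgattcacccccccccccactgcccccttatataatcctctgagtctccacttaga
Gbp7 (chr3:142193140-142193299, + strand): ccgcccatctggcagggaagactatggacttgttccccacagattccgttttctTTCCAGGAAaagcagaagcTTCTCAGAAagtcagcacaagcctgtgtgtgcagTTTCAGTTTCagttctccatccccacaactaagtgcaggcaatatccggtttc
Irgm2 (chr11:58028319-58028478, + strand): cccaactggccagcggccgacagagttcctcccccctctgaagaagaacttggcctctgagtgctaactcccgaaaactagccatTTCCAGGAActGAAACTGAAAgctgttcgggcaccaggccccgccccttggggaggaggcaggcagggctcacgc
Irf1 (chr11:53583356-53583515, + strand): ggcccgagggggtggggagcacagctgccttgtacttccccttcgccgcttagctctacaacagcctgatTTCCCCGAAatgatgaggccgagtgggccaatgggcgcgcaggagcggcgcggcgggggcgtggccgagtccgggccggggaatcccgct
B2m (chr2:121973263-121973422, + strand): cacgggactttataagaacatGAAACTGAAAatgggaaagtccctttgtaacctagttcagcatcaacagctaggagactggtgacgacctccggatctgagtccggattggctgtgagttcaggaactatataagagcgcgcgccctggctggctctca
Trim25 (chr11:88860557-88860716, + strand): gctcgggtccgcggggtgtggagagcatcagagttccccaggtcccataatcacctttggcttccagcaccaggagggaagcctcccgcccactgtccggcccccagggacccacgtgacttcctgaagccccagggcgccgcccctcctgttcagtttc

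Of the 39 members, 31 had a promoter in the RefSeq table, counted from 250 bases before to 50 bases after the start. A member was counted as matched if any of its promoters held a match. An ISRE match was present in 17 of these 31 members (54.8%), in 17 of their 35 promoters and in 3.44% of all 32841 promoters in the table. A GAS match was present in 9 of the 31 members (29%), in 9 of their 35 promoters and in 8.3% of all promoters. The cAMP response element in its full form (TGACGTCA) was present in 0 of the 31 and in 1.79% of all promoters. The pair of ISRE matches in Ifit3 began 156 and 122 bases before the start, and the single ISRE match in B2m began 139 bases before it. In Irgm2, the GAS and ISRE matches lay next to each other, at 75 and 64 bases before the start, and Igtp had the same arrangement at 45 and 34 bases. Trim25 was among the 11 members with neither kind of match, as were Irf7, Irf9 and Tap1. The promoters of Iigp1, I830012O16Rik, Dhx58, Usp18, Parp9, Parp14, Zbp1 and Rtp4 were not analysed here.

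The library Lipase Inh. + SR-3420 replicate 2 stood apart, with 4263755 counts and 18.3% of them on Lars2, while the other 17 libraries held between 10310447 and 21205032 counts and at most 0.121% on that gene. Levels below are counts-per-million (CPM) of the library total after TMM scaling, a scaling that sets most genes equal between libraries. All 11 markers of brown adipocytes were detected, with summed levels of 6453 to 10002 CPM, while 4 endothelial markers summed to at most 0.631 CPM. Of 11 leukocyte markers, 10 were in the table, and their summed level lay between 5.68 and 15.8 CPM. The leukocyte sum was 8.22 to 11.1 CPM in Vehicle, 8.30 to 15.8 in ISO, 7.23 to 8.28 in SR-3420, 6.93 to 11.2 in Lipase Inh. + Vehicle, 10.8 to 13.9 in Lipase Inh. + ISO and 5.68 to 6.30 in Lipase Inh. + SR-3420. Ptprc, which marks all leukocytes, and Siglech, which marks plasmacytoid dendritic cells, were at 0 in every library, and most of the sum came from Cd68 and Cd14. The 6 markers of preadipocytes and fibroblasts summed to 77.8 to 108.5 CPM in Vehicle, 85.0 to 106 in ISO, 111 to 123 in SR-3420, 92.2 to 106.5 in Lipase Inh. + Vehicle, 74.2 to 105 in Lipase Inh. + ISO and 90.3 to 92.7 in Lipase Inh. + SR-3420, so that the SR-3420 libraries lay wholly above Vehicle. Of these markers, Pdgfrb and Dlk1 rose with SR-3420, and Pdgfra and Thy1 rose with ISO. With ISO and inhibitors, Thy1 and Ly6a rose and Pdgfrb fell, and 0 were called with SR-3420 and inhibitors. Of 10 brown adipocyte markers tested, 4 rose with SR-3420 (Ucp1, Ebf2, Plin1 and Fabp4) and 3 fell (Pparg, Adipoq and Cox8b). Of all genes, 26% rose and 25.4% fell with SR-3420. With ISO 3 brown adipocyte markers rose and 1 fell, against 26.8% and 25% of all genes. With ISO and inhibitors 4 rose and 1 fell, against 29.4% and 28.3%, and with SR-3420 and inhibitors 0 were called. Of 2 leukocyte markers tested, Cd68 rose with ISO (log2 fold change 0.74) and Cd14 rose with ISO and inhibitors (0.81). With SR-3420, without or with inhibitors, 0 of these 2 were called. The part of other or less differentiated cells in the results was not tested beyond these values, and in bulk RNA fewer expressing cells and less RNA per cell cannot be told apart.

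Interferon genes themselves were at or near 0. Of 21 interferon genes in the table, 17 had no count in any library, and the highest single value was 5 counts, for Ifnz. Ifnb1, the gene of interferon-β, reached at most 2 counts in a library, and Ifng was at 0 throughout.

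Levels per transcript length spanned a wide range. B2m, the light chain of MHC class I molecules, had a mean over all libraries of 640 RPKM (CPM per kilobase of counted length), followed by Trim25 at 34.5, Tap1 at 15.2, Eif2ak2 at 12.5 and Bst2 at 11.5 RPKM. These 5 members were above 10 RPKM, 23 lay between 1 and 10 RPKM, and 11 were below 1 RPKM. Classical markers of a strong interferon response were among the low ones, with Rsad2 at 0.124 RPKM, Ifi44 at 0.146, Oasl2 at 0.304 and Cmpk2 at 0.231. Oas1a, Rsad2, Ifi44 and Zbp1 failed the filter on low counts, with 39, 108, 101 and 68 counts summed over all 18 libraries, and the other 35 members were tested among 12156 genes.

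The question put to each comparison was which of these genes moved with adrenergic stimulation, with lipolysis alone, or with stimulation when lipolysis was blocked. ISO lowered the members more often than it raised them. Against Vehicle, 14 of 35 members (40%) were lower and 1 was higher (adjusted p at most 0.05, edgeR's quasi-likelihood test with Benjamini-Hochberg adjustment over all genes), while of all genes tested 25% were lower and 26.8% higher. Past a fold change of 2 as well (log2 of 1), 2 members were lower (Irgm2 and Igtp), against 4.07% of all genes, and 1 was higher (Trim25), against 5.03%. The median log2 fold change was -0.49 over the members and -0.02 over all genes. In 17 members all ISO values lay below all Vehicle values, which held for 27.4% of all genes, and in 3 they lay above, which held for 28.2%.

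SR-3420 against Vehicle gave 11 lower (31.4%) and 3 higher members, against 25.4% and 26% of all genes. Past a fold change of 2, 1 member was lower (Irgm2) and 0 were higher, against 2.37% and 3.97%. The members' median was -0.29, and that of all genes -0.02. ISO and SR-3420 were compared with the same Vehicle libraries, so their values are not independent. The members called lower with ISO were Bst2, Eif2ak2, Gbp2, Gbp7, Ifit3, Igtp, Irf1, Irf9, Irgm1, Irgm2, Parp12, Samd9l, Stat2 and Tap1. Those called lower with SR-3420 were Bst2, Eif2ak2, Gbp2, Gbp7, Ifi35, Igtp, Irf9, Irgm1, Irgm2, Parp12 and Stat2.

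Lipase inhibitors alone left most members near the Vehicle level. In edgeR's test 1 member was higher (Ifit3) and 0 were lower, against 0.485% and 0.428% of all genes. Past a fold change of 2, 0 members were called in either direction, against 0.00823% of all genes higher and 0.0411% lower. At an unadjusted p under 0.05, 7 members were higher and 1 was lower. The share of all genes at that limit was not computed, so this count has no background to be read against. In 7 members all Lipase Inh. + Vehicle values lay above all Vehicle values, against 8.03% of all genes. In 2 members they lay below, against 7.4%. DESeq2 with adjustment called 0 members in either direction, against 0.962% of all genes higher and 0.74% lower. The members' median was 0.13 and that of all genes 0.00, and 25 of 35 had a positive fold change.

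With the lipases inhibited, ISO lowered 25 of 35 members (71.4%) and raised 2, Trim25 and Irf9, compared with Lipase Inh. + Vehicle. Of all genes, 28.3% were lower and 29.4% higher. The median was -0.82 over the members and -0.01 over all genes. All Lipase Inh. + ISO values lay below all Lipase Inh. + Vehicle values in 26 members, which held for 31.8% of all genes. Past a fold change of 2, 11 members were lower, against 7.63% of all genes, and 1 was higher, against 5.43%.

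SR-3420 with inhibitors lowered 9 members (25.7%) and raised 0 relative to Lipase Inh. + Vehicle, against 1.36% and 2.99% of all genes. The 9 were Gbp2, Gbp7, I830012O16Rik, Ifit3, Igtp, Iigp1, Irgm1, Irgm2 and Stat2. Ifit3, I830012O16Rik and Iigp1 also passed the fold change of 2, which only 10 of the 12156 genes did in this direction (0.0823%), while 0 members rose that far, against 0.214%. The members' median was -0.33 and that of all genes 0.00, and 16 members lay wholly below the control, against 8.19% of genes. Without the shallow library, 4 of the 9 were called, Ifit3 (log2 fold change -1.29, adjusted p = 0.00157), I830012O16Rik (-1.82, adjusted p = 0.0117), Stat2 (-0.40, adjusted p = 0.0219) and Igtp (-0.70, adjusted p = 0.0483), against 0.88% of all genes, and the median was -0.22. The count also fell to 4 without Lipase Inh. + Vehicle replicate 3 or Lipase Inh. + SR-3420 replicate 1, and to 5 without Lipase Inh. + Vehicle replicate 2 or Lipase Inh. + SR-3420 replicate 3. With Vehicle in place of Lipase Inh. + Vehicle as the control, a comparison added after the data were seen, 1 member was lower, Irgm2 (log2 fold change -0.51, adjusted p = 0.0498), against 2.62% of all genes. The same change of control left 20 lower and 2 higher for ISO with inhibitors, against 28.1% and 28.9% of all genes.

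**Figure D1:**
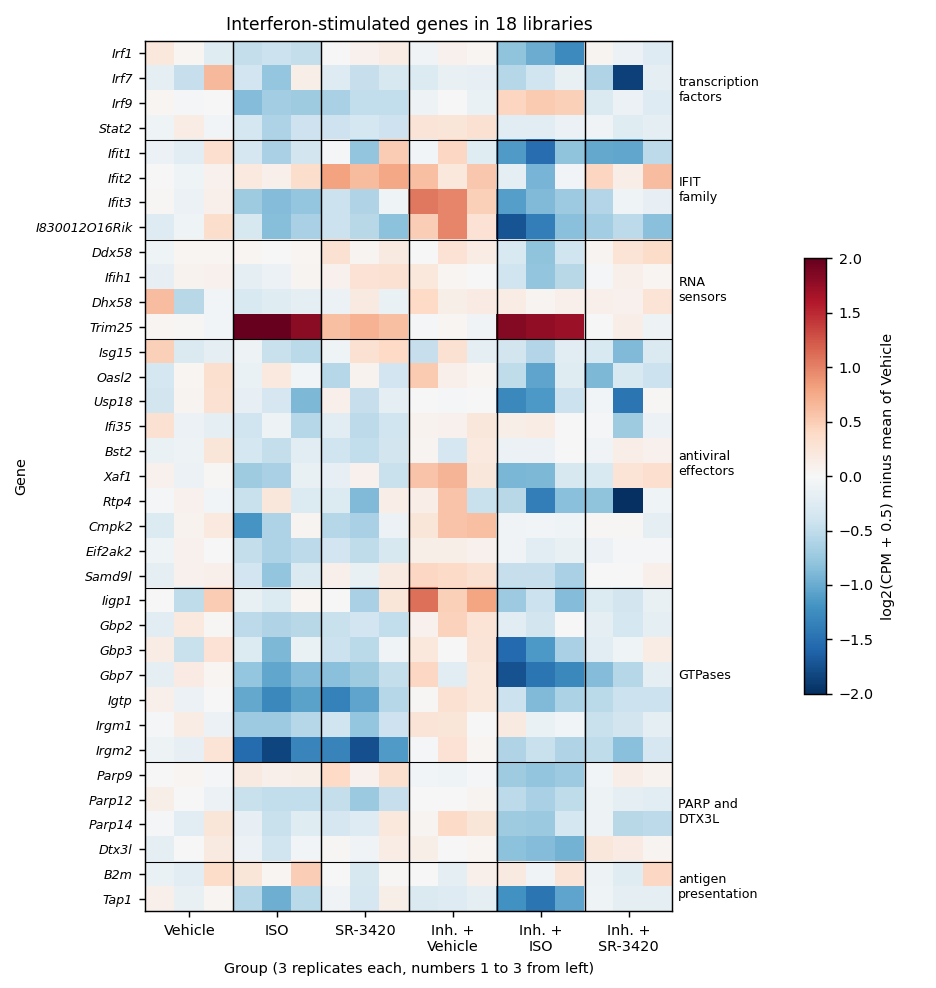
Heat map of the 35 tested members (rows, grouped by role) in all 18 libraries (columns, 3 per group). Colour gives log2(CPM + 0.5) minus the mean of the Vehicle libraries, with values past 2 in either direction shown in the end colours. Trim25 is high in the ISO and Lipase Inh. + ISO libraries, most other rows are blue in Lipase Inh. + ISO, and Ifit3, I830012O16Rik and Iigp1 are red in Lipase Inh. + Vehicle.

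Among the transcription factors of the pathway, Irf9, the DNA-binding subunit of ISGF3, had opposite responses to ISO without and with inhibitors. Its levels were 19.5, 18.5 and 19.1 CPM in Vehicle, 10.2, 11.6 and 11.4 in ISO and 11.9, 13.4 and 13.3 in SR-3420. With inhibitors they were 17.8, 19.0 and 17.2 CPM in Lipase Inh. + Vehicle, 25.9, 27.6 and 26.6 in Lipase Inh. + ISO and 15.5, 17.6 and 15.8 in Lipase Inh. + SR-3420. Every ISO and SR-3420 value lay below every Vehicle value, and every Lipase Inh. + ISO value lay above all other libraries. The log2 fold change with ISO was -0.79 ± 0.10 (SE, adjusted p = 7.47e-07) without inhibitors and 0.57 ± 0.09 (adjusted p = 1.39e-05) with them. The difference between these, tested as an interaction, was 1.35 ± 0.13 (adjusted p = 7.84e-08), and it passed in all 26 other settings tried. With SR-3420 the log2 fold change was -0.56 ± 0.09 (adjusted p = 3.95e-05) without inhibitors and -0.16 ± 0.10 (adjusted p = 0.459) with them.

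Irf1, an early interferon target that itself activates other members, was at 17.6, 15.5 and 12.7 CPM in Vehicle, 10.8, 11.1 and 10.7 in ISO and 15.3, 16.1 and 16.8 in SR-3420. In the groups with inhibitors it was at 14.4, 16.1 and 15.5 CPM in Lipase Inh. + Vehicle, 8.46, 7.32 and 5.98 in Lipase Inh. + ISO and 15.8, 13.9 and 12.5 in Lipase Inh. + SR-3420. The ISO values lay under the Vehicle range and the Lipase Inh. + ISO values under all other libraries, while SR-3420 overlapped its control in both settings. Irf1 fell with ISO (log2 fold change -0.50 ± 0.13, adjusted p = 0.00358) and with ISO and inhibitors (-1.10 ± 0.14, adjusted p = 6.32e-07), and the interaction was -0.60 ± 0.19 (adjusted p = 0.0211). The interaction was lost under total counts alone, in thinned counts and without Lipase Inh. + ISO replicate 3, with adjusted p up to 0.160. ISO against SR-3420 differed as well, at -0.57 ± 0.13 (adjusted p = 0.00275).

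Stat2, the ISGF3 subunit that carries its activation domain, was lower in all 4 comparisons of a stimulus with its control, with log2 fold changes of -0.46 with ISO, -0.41 with SR-3420, -0.46 with ISO under inhibition and -0.42 with SR-3420 under inhibition. Its mean was 40.3 ± 3.71 CPM (SD, n = 3) in Vehicle and 29.2 ± 2.71 CPM in ISO. Irf7, which amplifies the interferon response, was called in none of the comparisons, at mean levels of 4.52 ± 2.15 CPM in Vehicle and 3.34 ± 1.19 CPM in ISO.

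The IFIT proteins bind foreign RNA and block its translation, and their 4 genes lie together on chromosome 19. All 4 fell with ISO in the presence of inhibitors, 3 of them more than 2-fold, against 28.3% and 7.63% of all genes. Ifit3 was at 4.93, 4.40 and 5.20 CPM in Vehicle, 2.78, 2.43 and 2.63 in ISO and 3.45, 3.03 and 4.51 in SR-3420. With inhibitors its levels were 10.6, 10.1 and 6.93 CPM in Lipase Inh. + Vehicle, 1.98, 2.38 and 2.74 in Lipase Inh. + ISO and 3.06, 4.53 and 4.26 in Lipase Inh. + SR-3420. The Lipase Inh. + Vehicle libraries were the highest of all, above every Vehicle library, and both stimulated groups with inhibitors lay below them. The rise with inhibitors alone was 0.91 ± 0.19 (adjusted p = 0.0145), a call that was lost in 7 of 26 other settings, among them DESeq2 and leaving out Vehicle replicate 1 or 2 or Lipase Inh. + Vehicle replicate 1 or 2, with adjusted p from 0.00416 to 0.142. Ifit3 fell with ISO (-0.88 ± 0.22, adjusted p = 0.00208) and with ISO and inhibitors (-1.92 ± 0.21, adjusted p = 6.72e-08). With SR-3420 and inhibitors the change was -1.24 ± 0.21 (adjusted p = 0.000739), while against Vehicle that group differed by -0.33 (adjusted p = 0.368).

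I830012O16Rik is a close copy of Ifit3 in the same cluster, so that reads may be divided between them and the values of both are uncertain to that extent. It was at 1.39, 1.62 and 2.38 CPM in Vehicle, 1.32, 0.756 and 0.945 in ISO and 1.18, 1.04 and 0.786 in SR-3420. In cells given inhibitors it was at 2.70, 3.95 and 2.25 CPM in Lipase Inh. + Vehicle, 0.180, 0.366 and 0.760 in Lipase Inh. + ISO and 0.901, 1.07 and 0.763 in Lipase Inh. + SR-3420. These values rest on 2 to 48 counts a library, and both stimulated groups with inhibitors lay wholly below Lipase Inh. + Vehicle. That control ranged from 2.25 to 3.95 CPM against 1.39 to 2.38 CPM in Vehicle, a difference that was not called. With ISO and inhibitors I830012O16Rik had the largest fall of the 35 tested members, -2.56 ± 0.38 (adjusted p = 5.32e-06). It gave -1.76 ± 0.37 with SR-3420 and inhibitors (adjusted p = 0.00652), a call lost without Lipase Inh. + SR-3420 replicate 3 (adjusted p = 0.0645).

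Ifit2 rose with SR-3420. Its levels were 7.71, 7.26 and 8.29 CPM in Vehicle, 8.95, 8.31 and 9.98 in ISO and 14.0, 12.3 and 13.6 in SR-3420. With inhibitors they were 12.0, 9.06 and 11.4 CPM in Lipase Inh. + Vehicle, 6.66, 3.84 and 7.45 in Lipase Inh. + ISO and 10.6, 8.53 and 12.2 in Lipase Inh. + SR-3420. All SR-3420 libraries were above all Vehicle and ISO libraries, and Lipase Inh. + ISO lay below its control. The rise with SR-3420 was 0.78 ± 0.17 (adjusted p = 0.000622), the log2 fold change with ISO and inhibitors -0.82 ± 0.18 (adjusted p = 0.000415), and the ISO interaction -1.05 ± 0.25 (adjusted p = 0.00283). The SR-3420 interaction was -0.78 ± 0.24 (adjusted p = 0.0207), a call lost without Lipase Inh. + Vehicle replicate 1 (adjusted p = 0.0568).

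Ifit1, at 3.98, 3.63 and 5.65 CPM in Vehicle, 3.33, 2.60 and 3.26 in ISO and 4.26, 2.31 and 6.40 in SR-3420, was called in neither comparison without inhibitors. In the presence of inhibitors its levels were 4.16, 5.93 and 3.58 CPM in Lipase Inh. + Vehicle, 1.71, 1.19 and 2.28 in Lipase Inh. + ISO and 1.89, 1.87 and 2.86 in Lipase Inh. + SR-3420. Both stimulated groups lay under their control here, and the fall with ISO passed, at -1.32 ± 0.33 (adjusted p = 0.00155), while SR-3420 gave -0.94 ± 0.33 (adjusted p = 0.133).

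Trim25, of the RNA sensors and their regulators, was the member with the largest rise. It encodes a ubiquitin ligase that activates the RNA sensor RIG-I. Its levels were 97.8, 97.0 and 92.4 CPM in Vehicle, 391, 439 and 334 in ISO and 145, 155 and 145 in SR-3420. With inhibitors they were 93.1, 98.2 and 90.8 CPM in Lipase Inh. + Vehicle, 345, 329 and 318 in Lipase Inh. + ISO and 95.2, 104 and 88.7 in Lipase Inh. + SR-3420. The ISO groups without and with inhibitors overlapped each other far above all other libraries, SR-3420 was intermediate, and Lipase Inh. + SR-3420 overlapped Vehicle. Trim25 rose with ISO by 2.02 ± 0.08 on the log2 scale (adjusted p = 1.73e-14) and with SR-3420 by 0.63 ± 0.08 (adjusted p = 1.46e-06), and the difference between the compounds was 1.39 ± 0.08 (adjusted p = 2.77e-11). With inhibitors the rise with ISO was 1.81 ± 0.08 (adjusted p = 5.47e-14), and the ISO interaction did not pass, at -0.21 ± 0.11 (adjusted p = 0.176). SR-3420 with inhibitors gave 0.02 ± 0.08 (adjusted p = 0.939), with an interaction of -0.61 ± 0.12 (adjusted p = 0.000512). Its printed promoter window held none of the 3 motifs searched.

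The sensors themselves, Ddx58 (RIG-I) and Ifih1 (MDA5), were called, among comparisons of a stimulus with its control, only for ISO in the presence of inhibitors. Ddx58 went from 12.1 ± 1.28 CPM in Lipase Inh. + Vehicle to 7.55 ± 1.42 CPM in Lipase Inh. + ISO (log2 fold change -0.66 ± 0.14, adjusted p = 0.000280), with a mean of 10.8 ± 0.525 CPM in Vehicle and 11.0 ± 0.201 CPM in ISO. Ifih1 fell as well (-0.69 ± 0.14, adjusted p = 0.000213). The interaction was -0.69 ± 0.19 for Ddx58 (adjusted p = 0.00871) and -0.60 ± 0.20 for Ifih1 (adjusted p = 0.0226). The Ifih1 interaction was lost in 7 of 26 other settings, among them total counts alone, no filter, thinned counts and leaving out Vehicle replicate 1, ISO replicate 3, Lipase Inh. + Vehicle replicate 1 or Lipase Inh. + ISO replicate 2, with adjusted p up to 0.444. Dhx58 (LGP2), which tunes both sensors, was called in no comparison.

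**Figure D2:**
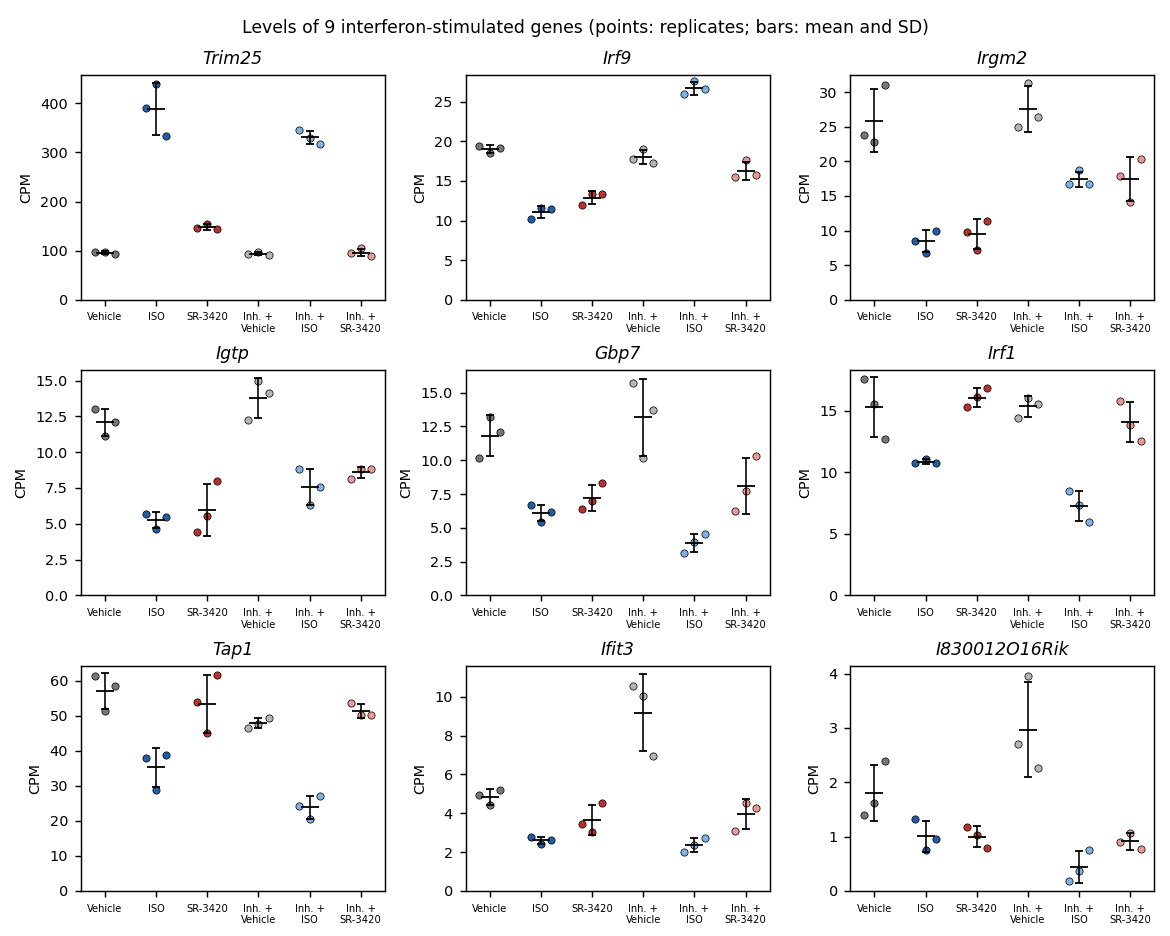
Levels in CPM (vertical axes, starting at 0) of 9 members in the 6 groups, where points are the 3 replicates and bars the mean with SD. Trim25 lies between 318 and 439 CPM in the ISO and Lipase Inh. + ISO groups and at most at 155 CPM elsewhere. Irf9 is lowest in ISO and highest in Lipase Inh. + ISO.

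The interferon-inducible GTPases, which attack the vacuoles of intracellular pathogens, included the members that fell most without inhibitors. Of 7 tested, 5 fell with ISO and the same number with SR-3420, against 25% and 25.4% of all genes. With inhibitors, 6 fell with ISO and 6 with SR-3420, against 28.3% and 1.36% of all genes, and 0 rose in any of these comparisons. Of the 6 called with SR-3420 and inhibitors (Gbp2, Gbp7, Igtp, Iigp1, Irgm1 and Irgm2), Igtp alone was still called without the shallow library, and 0 were called in counts thinned to its total. Irgm2, at 23.8, 22.7 and 31.1 CPM in Vehicle, 8.54, 6.80 and 9.98 in ISO and 9.85, 7.25 and 11.4 in SR-3420, fell furthest. Under lipase inhibition it was at 24.9, 31.3 and 26.5 CPM in Lipase Inh. + Vehicle, 16.7, 18.7 and 16.8 in Lipase Inh. + ISO and 17.9, 14.1 and 20.3 in Lipase Inh. + SR-3420. The stimulated groups with inhibitors lay between the controls and the stimulated groups without inhibitors, with no overlap on either side. The log2 fold change was -1.62 ± 0.17 with ISO (adjusted p = 5.56e-08) and -1.42 ± 0.16 with SR-3420 (adjusted p = 2.57e-07). It was -0.66 ± 0.15 (adjusted p = 0.000844) and -0.61 ± 0.16 (adjusted p = 0.0295) with inhibitors. Both interactions were positive, at 0.96 ± 0.23 for ISO (adjusted p = 0.00278) and 0.81 ± 0.23 for SR-3420 (adjusted p = 0.0101).

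Igtp, the neighbour of Irgm2 on chromosome 11, was at 13.0, 11.1 and 12.1 CPM in Vehicle, 5.69, 4.62 and 5.46 in ISO and 4.41, 5.57 and 7.97 in SR-3420. With inhibitors it was at 12.2, 15.0 and 14.1 CPM in Lipase Inh. + Vehicle, 8.82, 6.32 and 7.55 in Lipase Inh. + ISO and 8.11, 8.79 and 8.84 in Lipase Inh. + SR-3420. All stimulated libraries lay below all unstimulated ones. Igtp fell in each comparison, with log2 fold changes of -1.20 ± 0.18 with ISO (adjusted p = 7.57e-06), -0.99 ± 0.17 with SR-3420 (adjusted p = 5.1e-05), -0.86 ± 0.17 with ISO and inhibitors (adjusted p = 0.000125) and -0.69 ± 0.17 with SR-3420 and inhibitors (adjusted p = 0.0223). Irgm1, which regulates the other IRG proteins, fell with ISO (-0.71 ± 0.14, adjusted p = 0.000158), whereas with inhibitors it gave -0.17 ± 0.13 (adjusted p = 0.253), an interaction of 0.53 ± 0.19 (adjusted p = 0.0315).

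The guanylate-binding proteins Gbp2, Gbp3 and Gbp7 lie side by side on chromosome 3. Gbp7 was at 10.2, 13.2 and 12.1 CPM in Vehicle, 6.66, 5.46 and 6.20 in ISO and 6.39, 7.01 and 8.28 in SR-3420. In cells given inhibitors it was at 15.7, 10.1 and 13.7 CPM in Lipase Inh. + Vehicle, 3.15, 3.94 and 4.51 in Lipase Inh. + ISO and 6.22, 7.73 and 10.3 in Lipase Inh. + SR-3420. Lipase Inh. + ISO was the lowest group, below the ISO libraries too, and Lipase Inh. + SR-3420 overlapped its control by a single library. Gbp7 fell with ISO, with log2 fold changes of -0.94 ± 0.19 without inhibitors (adjusted p = 0.000317) and -1.75 ± 0.20 with them (adjusted p = 1.47e-07), and the interaction was -0.80 ± 0.28 (adjusted p = 0.0329). That interaction was lost in 9 of 26 other settings, including scaling by total counts alone.

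Gbp3 was at 14.0, 9.12 and 15.4 CPM in Vehicle, 10.3, 6.46 and 11.3 in ISO and 9.18, 8.52 and 11.9 in SR-3420. In the presence of inhibitors its levels were 14.6, 12.5 and 15.1 CPM in Lipase Inh. + Vehicle, 3.96, 5.40 and 7.86 in Lipase Inh. + ISO and 10.6, 11.7 and 14.0 in Lipase Inh. + SR-3420. The 3 groups without inhibitors overlapped, while Lipase Inh. + ISO lay below its control, with a log2 fold change of -1.25 ± 0.23 (adjusted p = 8e-05). Gbp2 fell in all 4 comparisons of a stimulus with its control, with log2 fold changes between -0.59 and -0.47.

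Iigp1 was low, at 1.52, 0.927 and 2.38 CPM in Vehicle, 1.32, 1.18 and 1.58 in ISO and 1.54, 0.796 and 1.89 in SR-3420. Under lipase inhibition it was at 3.86, 2.31 and 3.00 CPM in Lipase Inh. + Vehicle, 0.720, 1.01 and 0.608 in Lipase Inh. + ISO and 1.17, 1.07 and 1.34 in Lipase Inh. + SR-3420. Groups without inhibitors overlapped throughout, and both stimulated groups with inhibitors lay below their control. Lipase Inh. + Vehicle averaged 3.06 CPM against 1.61 CPM in Vehicle, a difference that was not called. Every Lipase Inh. + SR-3420 value lay within the Vehicle range. In the presence of inhibitors, Iigp1 fell with ISO (-2.02 ± 0.35, adjusted p = 4.56e-05) and with SR-3420 (-1.31 ± 0.35, adjusted p = 0.0316), on 4 to 53 counts a library.

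**Figure D3:**
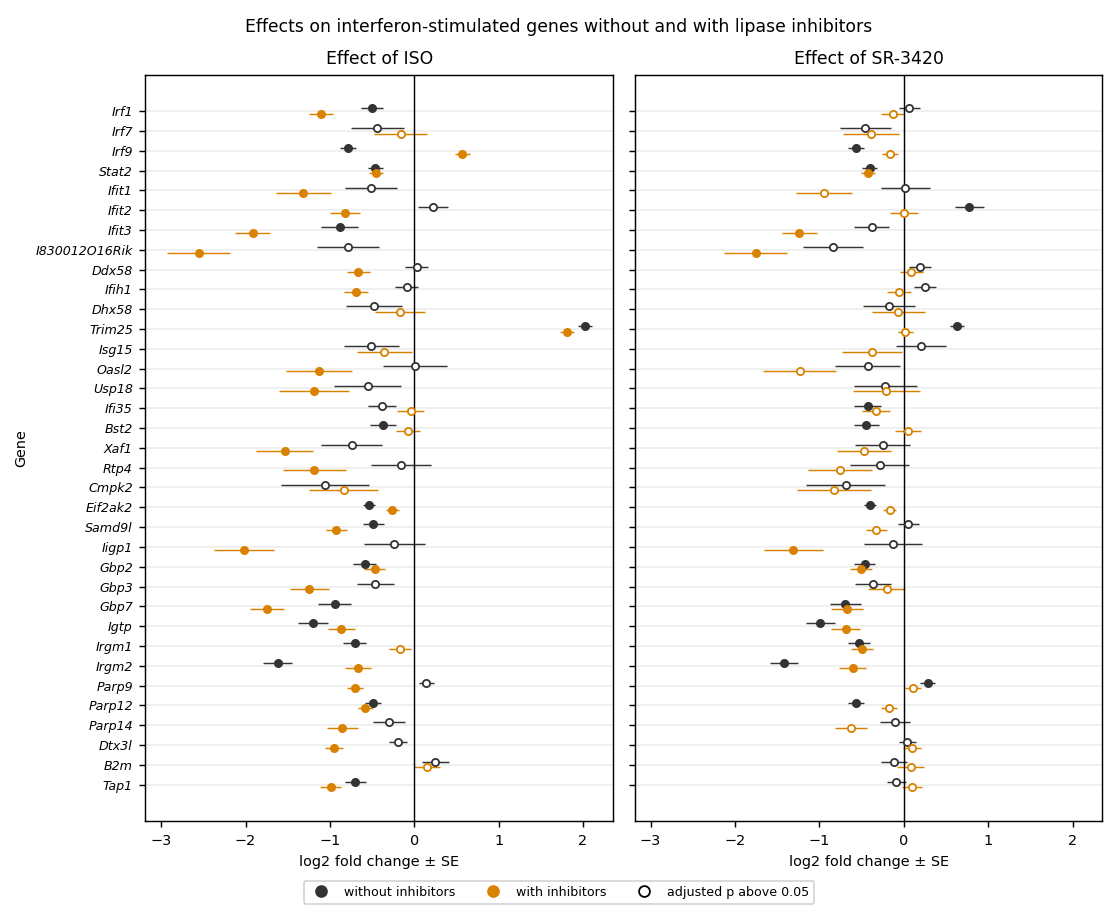
Log2 fold changes with SE (horizontal axes) of the 35 tested members (rows) with ISO (left) and SR-3420 (right), without inhibitors against Vehicle (dark) and with inhibitors against Lipase Inh. + Vehicle (orange). Filled points have an adjusted p of at most 0.05. With ISO, 32 of 35 orange points lie below 0, and Irf9 changes side.

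Of the antiviral effectors, 10 of 13 were tested. With ISO and inhibitors 6 fell and 0 rose, against 28.3% and 29.4% of all genes. SR-3420 with inhibitors called 0, against 1.36% of all genes lower and 2.99% higher. Xaf1, a pro-apoptotic interferon target, was at 1.58, 1.31 and 1.50 CPM in Vehicle, 0.694, 0.756 and 1.26 in ISO and 1.25, 1.59 and 0.944 in SR-3420. With inhibitors it was at 2.41, 2.64 and 1.79 CPM in Lipase Inh. + Vehicle, 0.540, 0.549 and 1.06 in Lipase Inh. + ISO and 1.08, 1.87 and 1.97 in Lipase Inh. + SR-3420. Only the ISO groups lay wholly below their controls, and with inhibitors the log2 fold change was -1.54 ± 0.33 (adjusted p = 0.000473).

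Usp18, the protease that removes ISG15 from proteins and dampens IFNAR signalling, was at 1.14, 1.70 and 2.12 CPM in Vehicle, 1.39, 1.18 and 0.630 in ISO and 1.76, 1.04 and 1.36 in SR-3420. In cells given inhibitors it was at 1.60, 1.57 and 1.62 CPM in Lipase Inh. + Vehicle, 0.360, 0.458 and 1.06 in Lipase Inh. + ISO and 1.53, 0.266 and 1.65 in Lipase Inh. + SR-3420. Lipase Inh. + ISO lay below its control (-1.19 ± 0.41, adjusted p = 0.0179), and without inhibitors the groups overlapped. Rtp4, a chaperone of membrane receptors, was at 3.54, 3.94 and 3.53 CPM in Vehicle, 2.57, 4.37 and 2.94 in ISO and 2.94, 1.75 and 4.09 in SR-3420. In the presence of inhibitors its levels were 4.08, 5.68 and 2.54 CPM in Lipase Inh. + Vehicle, 2.34, 1.10 and 1.82 in Lipase Inh. + ISO and 1.89, 0.533 and 3.44 in Lipase Inh. + SR-3420. The lowest of these is the shallow library, which held 2 counts of Rtp4, and Lipase Inh. + ISO was again below its control (-1.18 ± 0.37, adjusted p = 0.0101), a call lost without Lipase Inh. + Vehicle replicate 2 (adjusted p = 0.0668).

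Oasl2, a relative of the 2'-5' oligoadenylate synthetases, was at 0.758, 1.16 and 1.50 CPM in Vehicle, 0.971, 1.34 and 1.05 in ISO and 0.588, 1.19 and 0.734 in SR-3420. Under lipase inhibition it was at 1.82, 1.24 and 1.16 CPM in Lipase Inh. + Vehicle, 0.630, 0.275 and 0.862 in Lipase Inh. + ISO and 0.360, 0.799 and 0.700 in Lipase Inh. + SR-3420. Both stimulated groups with inhibitors lay below their control, but the fall passed with ISO alone (-1.13 ± 0.39, adjusted p = 0.0177) and not with SR-3420 (-1.23 ± 0.43, adjusted p = 0.129). Counts of Oasl2 and Usp18 were at most 25 and 28 a library, and each call was lost in 3 of 26 other settings, without Lipase Inh. + ISO replicate 2 among them.

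Eif2ak2, the RNA-activated kinase PKR, was the most abundant effector per length and had log2 fold changes of -0.54 ± 0.07 with ISO (adjusted p = 2.7e-06), -0.40 ± 0.07 with SR-3420 (adjusted p = 9.79e-05) and -0.26 ± 0.07 with ISO and inhibitors (adjusted p = 0.00396). Samd9l, a restriction factor, fell with ISO (-0.49 ± 0.13, adjusted p = 0.00273) and with ISO and inhibitors (-0.92 ± 0.12, adjusted p = 1.37e-06), and gave 0.06 ± 0.12 with SR-3420 (adjusted p = 0.728). Bst2 (tetherin), which holds virions at the cell surface, was lower with ISO (-0.37 ± 0.15, adjusted p = 0.0470), a call lost in 15 of 26 other settings. Isg15 and Cmpk2 were called in no comparison, and Isg15 had means of 1.97 ± 0.762 CPM in Vehicle and 1.34 ± 0.237 CPM in Lipase Inh. + ISO.

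All 4 genes of the PARP and DTX3L group, which act in ADP-ribosylation and ubiquitination downstream of interferon, fell with ISO in the presence of inhibitors. Of all genes, 28.3% fell in that comparison. Dtx3l went from 29.6 ± 1.30 CPM to 15.4 ± 0.720 CPM (-0.95 ± 0.11, adjusted p = 1.48e-07), and its partner Parp9 from 22.5 ± 0.358 CPM to 13.8 ± 0.421 CPM (-0.70 ± 0.09, adjusted p = 1.66e-06). Without inhibitors, Parp9 gave 0.14 ± 0.09 with ISO (adjusted p = 0.203) and rose with SR-3420 by 0.28 ± 0.09 (adjusted p = 0.0105). That rise was lost under total counts alone and without SR-3420 replicate 1, and ranged from 0.12 to 0.41 over 26 other settings, with adjusted p up to 0.314. The ISO interactions were -0.84 ± 0.13 for Parp9 (adjusted p = 3.56e-05) and -0.76 ± 0.15 for Dtx3l (adjusted p = 0.000521). The genes are transcribed in opposite directions and overlap by 558 bp, and since the use of strand in counting is not given in the sources used here, reads in that stretch cannot be assigned. Parp12 was lower with ISO (-0.49), with SR-3420 (-0.57) and with ISO and inhibitors (-0.58).

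The antigen presentation genes diverged. Tap1, a subunit of the peptide transporter that loads MHC class I, fell with ISO from 57.1 ± 5.16 CPM in Vehicle to 35.2 ± 5.59 CPM (-0.70 ± 0.12, adjusted p = 4.22e-05) and with inhibitors from 47.9 ± 1.46 CPM to 23.9 ± 3.32 CPM (-0.99 ± 0.12, adjusted p = 4.46e-07). SR-3420 gave -0.09 ± 0.11 without inhibitors (adjusted p = 0.538), and ISO against SR-3420 differed by -0.61 ± 0.12 (adjusted p = 0.000595). B2m had an ISRE match, as did the GTPases above whose promoters were analysed. It was called in no comparison, with means of 533 ± 123 CPM in Vehicle, 634 ± 101 CPM in ISO and 574 ± 66.2 CPM in Lipase Inh. + ISO.

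ISO and SR-3420 were also compared directly without inhibitors. The members' median log2 fold change was -0.20, and that of all genes -0.01. In 11 members all ISO values lay below all SR-3420 values, against 21.5% of all genes. In 2 members they lay above, against 22.4%. Against SR-3420, ISO gave 1 member higher (Trim25) and 4 lower (Ifit2, Irf1, Samd9l and Tap1), against 15.8% and 13.9% of all genes. Past a fold change of 2, Trim25 was higher and 0 members were lower, against 1.23% and 0.814%. The Ifit2 difference was lost without ISO replicate 1 or 2 or SR-3420 replicate 1 or 3, with adjusted p up to 0.0690. Scaling by total counts alone gave 1 higher and 11 lower, against 6.38% and 25% of all genes under that scaling. For Irgm2 the difference was -0.20 ± 0.18 (adjusted p = 0.438) and for Igtp -0.21 ± 0.19 (adjusted p = 0.430), neither of which passed. Bounds of 2 SE around these differences ran from -0.56 to 0.16 for Irgm2 and from -0.59 to 0.17 for Igtp.

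The test of whether the effect of ISO depended on the inhibitors gave 10 members with a negative interaction and 4 with a positive one, against 16.6% and 14.9% of all genes. An interaction past 1 on the log2 scale was called negative in 4 of them (I830012O16Rik, Iigp1, Ifit2 and Ifit3), against 4.71% of all genes, and positive in 1 (Irf9), against 2.18%. A negative value means that the fold change with ISO was lower in the presence of inhibitors. Of the 14 members called lower with ISO only in the presence of inhibitors, 7 had a negative interaction that passed (Ddx58, Dtx3l, I830012O16Rik, Ifih1, Ifit2, Iigp1 and Parp9), and for the other 7 a difference was not shown. The positive ones were Irf9, Irgm2, Irgm1 and Eif2ak2. Of these, the Eif2ak2 interaction (0.28, adjusted p = 0.0442) was lost in 14 of 26 other settings, DESeq2 among them, with adjusted p up to 0.601, and that of Irgm1 in 6 of 26, with adjusted p up to 0.231. The SR-3420 interaction passed in 3 members in each direction, against 14.8% and 12.5% of all genes, and in 0 of them past 1 on the log2 scale, against 2.42% negative and 1.4% positive.

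Read by promoter match, the fall was not limited to members with an ISRE match. With ISO and inhibitors, 11 of 15 tested members with a match were lower (median -0.66) and 8 of 13 without a match (median -0.84). Of all genes, 28.3% were lower in that comparison. With ISO alone, 9 of 15 and 5 of 13 were lower, against 25% of all genes. With SR-3420 and inhibitors, 7 of the 15 with a match were lower (median -0.42) and 0 of the 13 without (median -0.18). Of all genes, 1.36% were lower there, and the count of members shares the dependence on single libraries given above. These are descriptions of 28 members, and the split was not tested.

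Genes of the machinery of interferon signalling were called in both directions. Of 39 signalling genes in the table, 35 were tested, and with ISO 8 rose (22.9%) and 11 fell (31.4%), against 26.8% and 25% of all genes. With SR-3420 13 rose (37.1%) and 2 fell (5.71%), against 26% and 25.4%. With inhibitors, ISO raised 14 (40%) and lowered 7 (20%), against 29.4% and 28.3%, and SR-3420 raised 2 (5.71%) and lowered 0, against 2.99% and 1.36%. Medians were between -0.01 and 0.10 in these 4 comparisons. This list does not share genes with the members.

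Socs3, an inhibitor of cytokine receptor signalling, was highest in Lipase Inh. + ISO, at 25.2, 30.3 and 25.4 CPM in Lipase Inh. + Vehicle and 69.5, 81.7 and 67.4 in Lipase Inh. + ISO (1.43 ± 0.12, adjusted p = 1.5e-09), and gave 0.10 ± 0.13 with ISO alone (adjusted p = 0.534). Tyk2, a kinase of the type I receptor, averaged 20.6 ± 2.17 CPM (SD, n = 3) in Vehicle and 10.9 ± 1.75 CPM in ISO, a log2 fold change of -0.94 ± 0.14 (adjusted p = 6.33e-06), and fell with ISO and inhibitors as well (-1.42 ± 0.14, adjusted p = 1.46e-08). Stat3, which transmits signals of other cytokines, rose with ISO by 0.96 ± 0.09 (adjusted p = 1.14e-08) and with SR-3420 by 0.80 ± 0.09 (adjusted p = 1.95e-07). With inhibitors Stat3 rose with ISO by 1.18 ± 0.09 (adjusted p = 3.03e-10) and gave -0.04 ± 0.09 with SR-3420 (adjusted p = 0.881).

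Tank, an adaptor of the kinase TBK1, rose by 1.37 ± 0.07 with ISO (adjusted p = 1.11e-12) and 1.20 ± 0.07 with SR-3420 (adjusted p = 1.54e-11). Irf2bp2, a partner of the repressor IRF2, rose by 1.43 ± 0.11 with ISO (adjusted p = 2.44e-10) and gave -0.03 ± 0.10 with ISO and inhibitors (adjusted p = 0.853), an interaction of -1.46 ± 0.15 (adjusted p = 1.12e-07).

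**Figure D4:**
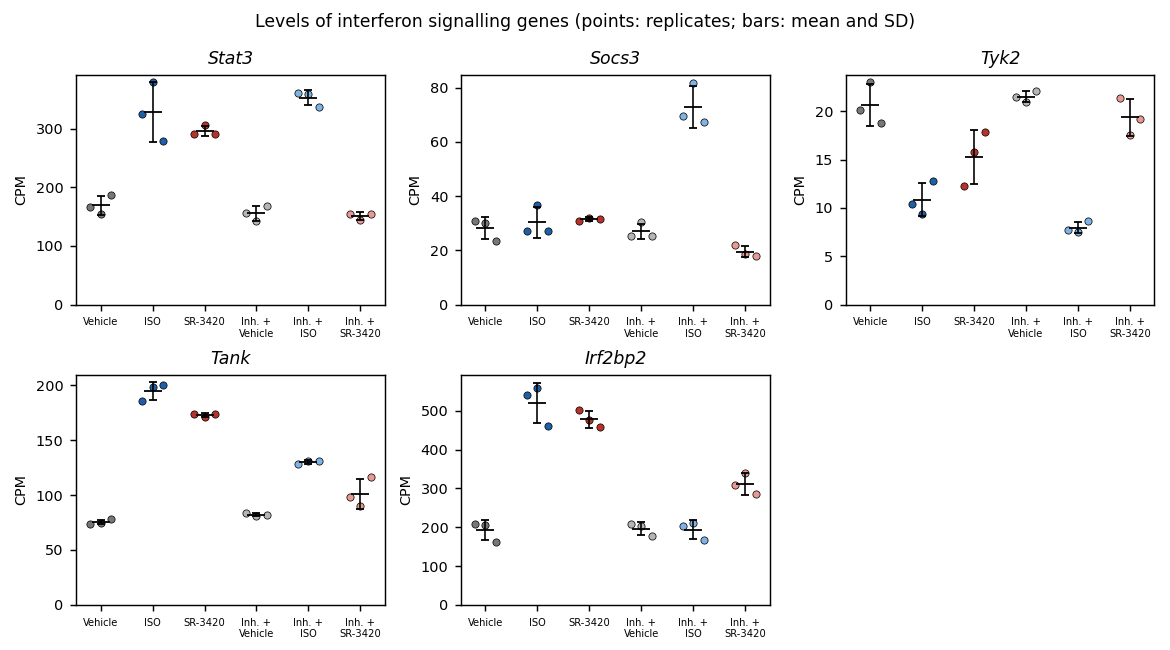
Levels in CPM (vertical axes, starting at 0) of 5 genes of interferon signalling in the 6 groups, where points are the 3 replicates and bars the mean with SD. Socs3 is high in Lipase Inh. + ISO alone, Stat3 is high in ISO, SR-3420 and Lipase Inh. + ISO, and Tyk2 is lowest in Lipase Inh. + ISO.

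A further list of 92 interferon-responsive genes in the table, of which 62 were tested, also held genes of both directions. With ISO 4 rose (6.45%) and 18 fell (29%), against 26.8% and 25% of all genes, and with SR-3420 9 rose (14.5%) and 18 fell (29%), against 26% and 25.4%. With ISO and inhibitors 12 rose (19.4%) and 20 fell (32.3%), against 29.4% and 28.3%. With SR-3420 and inhibitors 1 rose and 1 fell (1.61% each), against 2.99% and 1.36%. The medians were -0.15, -0.19, -0.18 and -0.08 in that order. Gbp6 and Gbp10, relatives of the guanylate-binding members, fell with ISO and inhibitors, with log2 fold changes of -2.32 ± 0.18 (adjusted p = 4.25e-10) and -2.13 ± 0.27 (adjusted p = 6.07e-07). In the same comparison Samhd1, which depletes nucleotides needed by viruses, rose by 1.17 ± 0.07 (adjusted p = 5.17e-12) and Cd274, the ligand PD-L1, by 1.11 ± 0.11 (adjusted p = 1.97e-08). Isg20, an exonuclease, rose with ISO by 1.73 ± 0.18 (adjusted p = 3.32e-08), and Helz2, a nuclear receptor coactivator, by 1.35 ± 0.14 (adjusted p = 5.63e-08).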

How the data were processed

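RNA-seq libraries were made from total RNA of 18 cultures, 3 in each of 6 groups taken from the sample titles. The deposited table holds whole-number counts of reads per gene. Per the methods, the authors aligned reads to mm9 with STAR (version 2.4.2a in the submitters' processing notes) and counted them with HOMER and iRNA-seq, allowing a single read per position and length. The use of strand in counting is not given in the sources used here. All 18 columns matched a sample title, and 0 columns of other samples were present.

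Counts were analysed as deposited with edgeR 4.0.16 in R 4.3.3. Genes passing filterByExpr (10 counts minimum, 15 in total) were scaled by TMM and fitted with all groups in a single quasi-likelihood model, and 8 contrasts were tested, with Benjamini-Hochberg adjustment over 12156 genes and a threshold of 0.05. An interaction is the difference between the fold changes with and without inhibitors. Counts-per-million (CPM) used the scaled library totals, and RPKM are CPM per kilobase of counted length. SE were taken from the fold change and its test.

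Alternatives were DESeq2 1.42.0, RLE factors, total counts alone, no filter or a stricter filter (1 CPM in 3 libraries), fits to the compared groups only, replicate number as a block, counts thinned to the smallest total (4263755), a fold threshold, and leaving out each library. On simulated counts for ISO against Vehicle (12043 genes), 200 of 200 genes changed 3-fold were recovered and 5 others were called. The changed genes were drawn from those with higher mean counts, at a fixed spread between libraries. Recovery of members with low counts, or of smaller changes, was therefore not tested. Libraries of a group differed by more than sampling noise. The members and gene lists were chosen with earlier results of these data known. Values in every library are given for members with an adjusted p of at most 0.05 and a log2 fold change of at least 1 in either direction in any contrast. At most 6 genes, by smallest p under the same threshold, were named from each other list, besides the interferon genes, and 1 gene of that rule is not reported here.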

Additional observations from a re-analysis of the deposited data

Results flagged for a closer look

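The effect of a stimulus differed between cells without and with lipase inhibitors in 20 cases, each by the interaction term of the edgeR model, and log2 interaction values are given here without an explanation. For ISO the negative values were -1.78 for I830012O16Rik, -1.78 for Iigp1, -1.05 for Ifit2, -1.03 for Ifit3, -0.84 for Parp9, -0.80 for Gbp7, -0.76 for Dtx3l, -0.69 for Ddx58, -0.60 for Irf1 and -0.60 for Ifih1. The positive values were 1.35 for Irf9, 0.96 for Irgm2, 0.53 for Irgm1 and 0.28 for Eif2ak2. For SR-3420 the values were -0.86 for Ifit3, -0.78 for Ifit2, -0.61 for Trim25, 0.81 for Irgm2, 0.40 for Irf9 and 0.39 for Parp12. Of these, Ifit3 was lost in 9 of 26 other settings, Irf9 in 8 and Parp12 in 7, with adjusted p up to 0.126, 0.501 and 0.0964. Ifit2 was lost in 1, and Trim25 and Irgm2 in 0. In Ifit3 the Lipase Inh. + Vehicle libraries, which are the control of the effect with inhibitors, were themselves above Vehicle (9.19 ± 1.97 CPM against 4.85 ± 0.406 CPM), and its part in the interaction was not tested. The same holds for Iigp1, whose control averaged 3.06 ± 0.780 CPM against 1.61 ± 0.732 CPM in Vehicle, though that difference was not called. Ifit2 averaged 10.8 ± 1.54 CPM in this control and 7.76 ± 0.516 CPM in Vehicle, with no overlap. The values of I830012O16Rik given above were higher in this control as well, with an overlap. Neither difference was called, and their part in the interactions was not tested. Groups of 3 libraries are too small for a test of single outlying libraries.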

How the results depend on the processing

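Of 91 called pairs of a member and a comparison, 58 were called under every alternative, 33 were lost under 1 or more, and 0 changed direction. Total counts alone moved the median of all genes to -0.33 for ISO, -0.18 for SR-3420, -0.24 for ISO with inhibitors and -0.16 for ISO against SR-3420, with members' medians of -0.79, -0.45, -1.05 and -0.34, and the lower members then numbered 26 for ISO and 11 for ISO against SR-3420, against 49.4% and 25% of all genes. Requiring a log2 fold change of at least 1 as well left 2 lower for ISO, 0 higher and 1 lower for SR-3420, 0 higher for inhibitors alone, 1 higher and 11 lower for ISO with inhibitors, 3 lower for SR-3420 with inhibitors, 1 higher and 4 lower for the ISO interaction, 0 and 0 for the SR-3420 interaction, and 0 lower for ISO against SR-3420. Thinned counts gave 0 higher for inhibitors alone, against 0.329% of all genes, and 3 lower for SR-3420 with inhibitors, against 0.913%. They gave 2 higher and 4 lower for the ISO interaction, against 11% and 12.8%. For the SR-3420 interaction 1 was higher, against 9.26%. The single member higher with inhibitors alone was 0 with DESeq2 and with only the groups compared, against 0.962% and 0.214% of all genes. Without a filter, the SR-3420 interaction had 1 higher, against 8.23% of all genes. In that setting ISO against SR-3420 had 2 higher, against 10.6%. With only the groups compared it also had 2 higher, against 15.8%. Vehicle as the control of SR-3420 with inhibitors, added after the data were seen, left 1 lower, against 2.62% of all genes. The causes of these changes were not tested.

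With replicate number as a block, 2 members were higher for ISO, against 28.8% of all genes. For the SR-3420 interaction 5 were lower, against 17.9%, and for ISO against SR-3420 2 were higher, against 18.7%. The other counts stayed within 1.5 times. The limit set for pairing, a correlation over 0.1 in every pair, was met for number 3 alone. Deviations of same-numbered libraries had mean correlations of -0.0118, 0.150 and 0.190 for numbers 1 to 3. The correlations were over 0.1 in 1, 12 and 15 of 15 pairs. A hint of sharing was that 12 of 18 libraries correlated best with their own number. The methods state 3 independent experiments, and the titles number the libraries of each group 1 to 3. Neither says that a number marks an experiment, and the main fit did not use the number.

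Leaving out each library in turn gave 13 to 17 lower and 1 to 2 higher for ISO, 10 to 12 and 2 to 3 for SR-3420, 0 to 0 and 0 to 1 for inhibitors alone, 23 to 26 and 2 to 2 for ISO with inhibitors, 4 to 10 and 0 to 0 for SR-3420 with inhibitors, 8 to 12 and 2 to 4 for the ISO interaction, 1 to 5 and 1 to 3 for the SR-3420 interaction, and 3 to 5 and 1 to 2 for ISO against SR-3420. Libraries that moved a count by more than 1.5 times, beside those named above for SR-3420 with inhibitors, were Vehicle 3 (2 higher for ISO and for ISO against SR-3420), Lipase Inh. + SR-3420 3 (2 higher for ISO against SR-3420), Vehicle 1 and 2 and Lipase Inh. + Vehicle 1 and 2 (0 higher for inhibitors alone), Vehicle 2, ISO 2, Lipase Inh. + Vehicle 3 and Lipase Inh. + ISO 1 (2 higher for the ISO interaction), Vehicle 1 and Lipase Inh. + Vehicle 1 (1 higher for the SR-3420 interaction), SR-3420 2 (5 lower there) and Lipase Inh. + Vehicle 1 (1 lower there). Over these fits, 21.5% to 25.5% of all genes were lower for ISO and 24.7% to 27.2% higher. For SR-3420 the shares were 21.5% to 25.9% and 23.1% to 26.4%. For ISO with inhibitors they were 25.2% to 28.8% and 26.5% to 29.9%. For SR-3420 with inhibitors they were 0.757% to 1.47% and 1.65% to 3.22%. Depth limited the low members: 3 counts were worth 0.152 to 0.799 CPM, the highest in the shallow library.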
